A study of Mus musculus with 18 samples.

Results

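A pair of cell preparations of sham-operated mouse liver were compared, Kupffer-like cells and the epithelial cells of the bile ducts (biliary epithelial cells, BECs). The comparison covered every gene with at least 1 FPKM in at least 3 of the 6 libraries, which held for 13771 of the 54532 genes in the deposited table. FPKM is the number of fragments per kilobase of transcript, scaled to the size of the library, so levels of different genes are on a scale per length. Each group held 3 libraries of polyadenylated RNA from primary liver cells of Mus musculus, labelled with the treatment Sham. The whole study has 18 libraries in 6 groups, and adds hepatocytes and the same cell types after bile duct ligation (BDL), a surgical block of bile flow. No genotype, strain, age, time after surgery, or way of isolating or sorting the cells is given in the sources used here. Nor do the labels tie a library to a mouse, so the p-values speak only of the spread between these libraries. How much of that spread is technical is not known.

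BECs, or cholangiocytes, line the bile ducts as a polarised epithelium that seals the lumen with tight junctions, senses flow through primary cilia, and adds chloride, bicarbonate and water to bile. Kupffer cells are the macrophages resident in the sinusoids of the liver, where they capture bacteria, dying cells and senescent red cells from portal blood and recycle their iron. Both populations receive signals from the gut and from each other, through chemokines, growth factors and receptors for microbial products.

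The 6 libraries held between 15977840 and 20583321 reads in genes, recovered from the deposited values. Replicates correlated at 0.947 to 0.980 within a group and libraries of different groups at 0.646 to 0.724 (Pearson correlation of log2(FPKM + 1) over genes, a description). Y-linked transcripts were present in BECs libraries 1 and 2 and absent from BECs library 3. They were present in Kupffer-like library 1 and absent from Kupffer-like libraries 2 and 3. Each group thus held libraries of both kinds, and the groups were not balanced for them. BECs library 3 also held more neutrophil and B cell transcripts than the other BECs libraries, and Kupffer-like library 1 more hemoglobin transcripts than the other Kupffer-like libraries. Values of library 1, 2 and 3 are given in that order throughout.

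Each preparation carried the markers of its labelled cell type. Among 15 biliary markers, Krt19, the type I keratin of bile ducts, stood at 459, 588 and 387 FPKM in BECs against 5.27, 2.82 and 1.68 in Kupffer-like cells. Epcam, an epithelial adhesion protein, stood at 196, 224 and 203 FPKM in BECs against 3.38, 2.49 and 0.751 in Kupffer-like cells. Sox9, a transcription factor of ductal cells, stood at 83.2, 91.8 and 73.9 FPKM in BECs against 0.564, 0.384 and 0.227 in Kupffer-like cells. All 3 markers were higher in every BECs library than in any Kupffer-like library. Among the Kupffer cell markers, Clec4f, a lectin of resident Kupffer cells, stood at 6.91, 8.53 and 18.3 FPKM in BECs against 1507, 1557 and 1812 in Kupffer-like cells. Timd4, a receptor for phosphatidylserine on dying cells, stood at 1.44, 1.62 and 1.37 FPKM in BECs against 115, 122 and 149 in Kupffer-like cells. Csf1r, the receptor on which macrophages depend for survival, stood at 39.8, 30.9 and 43.1 FPKM in BECs against 456, 485 and 619 in Kupffer-like cells. These groups did not overlap either, but the BECs libraries were not at 0 for any of the 3 macrophage genes.

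**Figure D1:**
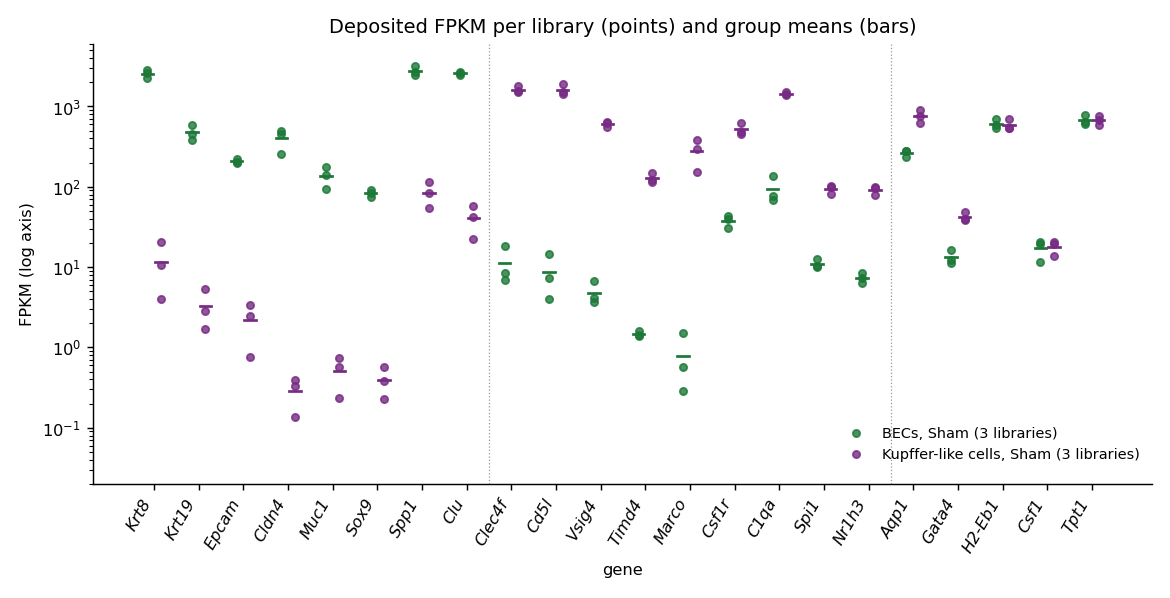
Deposited FPKM on a log axis for 22 genes in the 3 BECs and 3 Kupffer-like Sham libraries, where points are libraries and bars are group means. Biliary genes (left) and macrophage genes (middle) separate without overlap, while Aqp1 and Gata4 (right) lie higher in Kupffer-like cells and H2-Eb1, Csf1 and Tpt1 overlap.

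Of the 13771 genes tested, 7101 (51.6%) were called different at a limma adjusted p under 0.05 (Benjamini-Hochberg), of which 3809 (27.7%) were higher in BECs and 3292 (23.9%) were higher in Kupffer-like cells. Groups did not overlap for 8464 genes (61.5%). The shares of 27.7% and 23.9% are those to set beside each count of called list members below. Large differences were more often on the side of BECs: 991 called genes were at least 4-fold higher in BECs and 529 in Kupffer-like cells, and at 16-fold the counts were 148 and 40. Fold changes are on the log2(FPKM + 1) scale, positive where BECs were higher, and understate the change of genes with low values. The median log2 fold change over all genes tested was 0.03. The filter kept Agtpbp1, whose library ranked at place 3 stood at 1.0004 FPKM, and left out Cep112 at 0.9994. It also kept genes that reached 1 FPKM only in the libraries of a single group, such as Tlr5, Ccl20, Sctr and Cftr. The way such genes entered favours their call, so their calls are a description only.

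**Figure D2:**
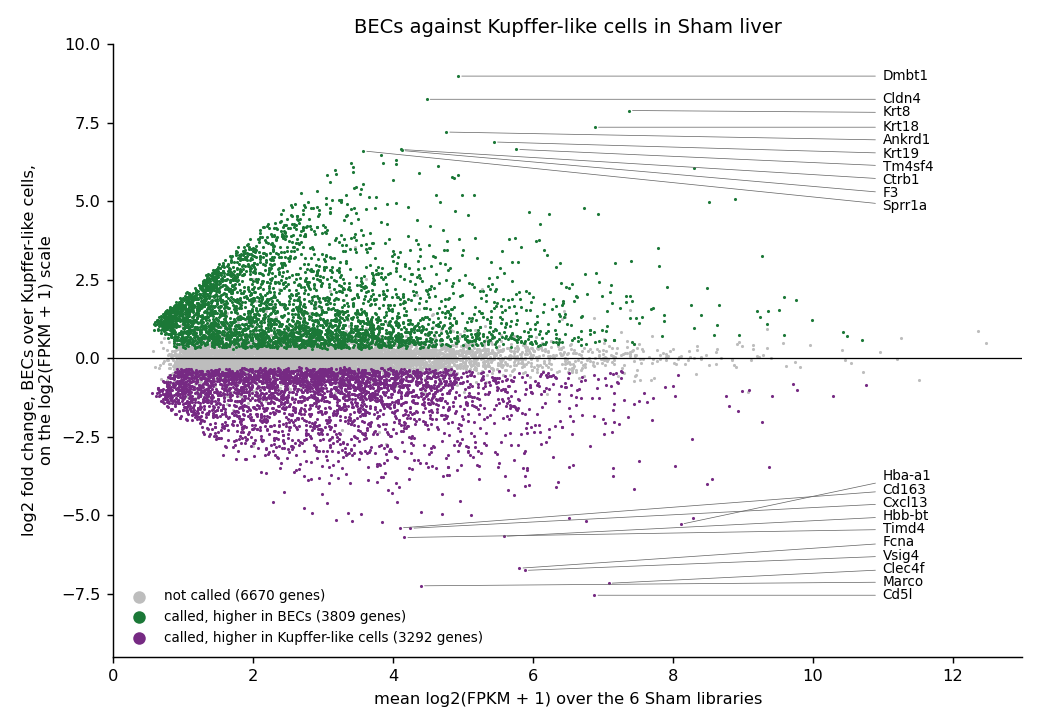
Log2 fold change of BECs over Kupffer-like cells (vertical) against the mean log2(FPKM + 1) of the 6 Sham libraries (horizontal), 1 point per gene, 13771 genes. Green points are the 3809 genes called higher in BECs and purple points the 3292 called higher in Kupffer-like cells, with the 10 largest differences on each side named.

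Epithelial structural and surface genes led the list of genes higher in BECs. Dmbt1 (chr7:131032053-131121630, GRCm38), a secreted scavenger protein of mucosal surfaces, stood at 796, 1288 and 311 FPKM in BECs against 0.696, 0.269 and 0.161 in Kupffer-like cells. Its log2 fold change was 8.98 ± 0.49 (SE; limma adjusted p = 1.4e-05), although its BECs libraries spread over a wide range. Cldn4 (chr5:134945119-134946934), a claudin of tight junctions, stood at 258, 449.6 and 498 FPKM in BECs against 0.328, 0.395 and 0.136 in Kupffer-like cells, a log2 fold change of 8.24. The keratin pair Krt8 (chr15:101996698-102004482) and Krt18, which form the filaments of simple epithelia, followed at 7.88 and 7.35. Krt8 stood at 2249, 2576 and 2838 FPKM in BECs against 20.4, 10.7 and 4.01 in Kupffer-like cells. Next came Ankrd1 (7.20), a target of the coactivator YAP, and Krt19 (6.88). Tm4sf4 (6.65) encodes a tetraspan membrane protein. F3 (6.61), the tissue factor that starts coagulation, stood at 187, 218 and 123 FPKM in BECs against 1.22, 0.872 and 0.313 in Kupffer-like cells. Sprr1a (6.60), a small proline-rich protein of stressed epithelia, stood at 114, 131 and 105 FPKM in BECs against 0.185, 0.254 and 0.184 in Kupffer-like cells. Ctrb1, a chymotrypsinogen of the exocrine pancreas, was also among the 10 (6.64), at 496, 209 and 48.7 FPKM in BECs against 0.396, 1.23 and 0.676 in Kupffer-like cells. Its BECs libraries differed from each other more than those of the other 9 genes did, with library 1 highest and library 3 lowest.

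Secreted proteins and capture receptors led on the side of Kupffer-like cells. Cd5l (chr3:87357881-87371073), a secreted scavenger-receptor protein of tissue macrophages, stood at 4.01, 7.26 and 14.5 FPKM in BECs against 1506, 1432 and 1913 in Kupffer-like cells, a log2 fold change of -7.54 ± 0.39 (SE; limma adjusted p = 1.1e-05). Marco (chr1:120474538-120505024), a scavenger receptor for bacteria, stood at 0.288, 0.564 and 1.49 FPKM in BECs against 378, 152 and 299.5 in Kupffer-like cells, a log2 fold change of -7.24. Clec4f (chr6:83644542-83656187) followed at -7.16. Vsig4 (chrX:96247203-96293438), a complement receptor of resident macrophages, stood at 3.63, 4.17 and 6.66 FPKM in BECs against 561, 629 and 647 in Kupffer-like cells, a log2 fold change of -6.75. The 3 Kupffer-like libraries lay close together for Vsig4 and further apart for Marco, where library 2 was lowest. Fcna (-6.68) encodes ficolin A, a lectin that starts complement activation. The others were Timd4 (-5.70), the B cell chemokine Cxcl13 (-5.41) and Cd163 (-5.40), the receptor for hemoglobin bound to haptoglobin. Hbb-bt (-5.67) and Hba-a1 (-5.29), hemoglobin chains of red cells, completed the 10. Hba-a1 stood at 39.1, 45.9 and 45.1 FPKM in BECs against 6004, 962 and 889 in Kupffer-like cells, so Kupffer-like library 1 lay well above the other Kupffer-like libraries. Hemoglobin chains have near-identical copies (Hba-a1 and Hba-a2, Hbb-bt and Hbb-bs), so the split of reads between copies is uncertain. Erythroid and platelet markers summed to 103.6 to 120.4 FPKM in BECs and 2193 to 14155 in Kupffer-like cells, and their part in these 2 differences was not tested.

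Promoters are shown for 7 of the named genes with the largest differences among those that hold a motif of 2 transcription factor families, because a member of each family also differed between the cell types. Spi1, which encodes the macrophage factor PU.1 of the ETS family, stood at 10.1, 10.3 and 12.5 FPKM in BECs against 82.0, 98.1 and 103 in Kupffer-like cells. Members of this family did not all go the same way, as the ETS factors Elf3 (6.20) and Ehf (4.70) were higher in BECs. Fosl1, a subunit of the AP-1 factor, stood at 106, 146 and 94.8 FPKM in BECs against 1.51, 1.23 and 1.01 in Kupffer-like cells. The sequences run from 250 bases before to 50 bases after the start of the gene and come from RefSeq (GRCm38.p6), which held a promoter for 9850 of the 13771 genes tested. Capitals in the first 4 mark GAGGAAGT or its reverse complement ACTTCCTC, a match to the core bound by PU.1 and other ETS factors. These are Spp1 (chr5:104434861-104435160, plus strand) and Prom1 (chr5:44094719-44095018, minus strand), both higher in BECs and each with 2 promoters in RefSeq, and C1qc (chr4:136892865-136893164, minus strand) and Ctss (chr3:95526536-95526835, plus strand), both higher in Kupffer-like cells.
Spp1: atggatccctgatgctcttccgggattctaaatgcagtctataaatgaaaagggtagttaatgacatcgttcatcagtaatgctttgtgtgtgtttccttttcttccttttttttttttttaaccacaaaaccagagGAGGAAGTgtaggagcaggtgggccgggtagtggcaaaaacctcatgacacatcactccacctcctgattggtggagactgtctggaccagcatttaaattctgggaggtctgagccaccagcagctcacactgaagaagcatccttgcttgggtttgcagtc
Prom1: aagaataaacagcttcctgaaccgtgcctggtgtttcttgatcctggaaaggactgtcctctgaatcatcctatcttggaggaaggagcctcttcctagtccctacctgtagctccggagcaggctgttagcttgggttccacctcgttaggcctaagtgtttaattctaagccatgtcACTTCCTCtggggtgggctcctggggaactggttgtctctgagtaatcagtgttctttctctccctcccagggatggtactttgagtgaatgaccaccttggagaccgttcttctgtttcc
C1qc: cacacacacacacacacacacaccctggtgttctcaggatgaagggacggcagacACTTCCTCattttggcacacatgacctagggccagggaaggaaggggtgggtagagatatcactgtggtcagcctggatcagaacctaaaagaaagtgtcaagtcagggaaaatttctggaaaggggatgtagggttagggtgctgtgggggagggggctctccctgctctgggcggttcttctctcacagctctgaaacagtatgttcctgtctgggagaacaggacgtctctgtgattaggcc
Ctss: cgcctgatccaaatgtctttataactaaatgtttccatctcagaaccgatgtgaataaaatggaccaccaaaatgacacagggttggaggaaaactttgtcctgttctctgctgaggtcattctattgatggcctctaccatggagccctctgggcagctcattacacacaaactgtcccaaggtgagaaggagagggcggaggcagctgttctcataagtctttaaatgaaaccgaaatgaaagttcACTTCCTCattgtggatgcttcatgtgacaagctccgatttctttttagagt
Capitals in the next 3 mark TGACTCA or its reverse complement TGAGTCA, a match to the core bound by AP-1 factors. These are Cldn4 (chr5:134946885-134947184, minus strand) and Sprr1a (chr3:92485832-92486131, minus strand), with 2 matches each, and F3 (chr3:121723287-121723586, plus strand), with 1, all higher in BECs.
Cldn4: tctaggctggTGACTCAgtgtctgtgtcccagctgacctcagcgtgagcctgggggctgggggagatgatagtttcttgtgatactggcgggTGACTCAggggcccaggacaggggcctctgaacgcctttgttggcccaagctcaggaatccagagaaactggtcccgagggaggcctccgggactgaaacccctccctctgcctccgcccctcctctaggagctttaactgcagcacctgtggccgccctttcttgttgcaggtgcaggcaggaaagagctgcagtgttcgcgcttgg
F3: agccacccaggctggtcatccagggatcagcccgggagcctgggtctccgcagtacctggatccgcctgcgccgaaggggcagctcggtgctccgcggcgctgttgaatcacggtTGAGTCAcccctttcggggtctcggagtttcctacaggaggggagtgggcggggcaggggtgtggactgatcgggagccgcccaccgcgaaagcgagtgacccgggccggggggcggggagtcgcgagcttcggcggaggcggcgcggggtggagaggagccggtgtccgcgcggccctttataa
Sprr1a: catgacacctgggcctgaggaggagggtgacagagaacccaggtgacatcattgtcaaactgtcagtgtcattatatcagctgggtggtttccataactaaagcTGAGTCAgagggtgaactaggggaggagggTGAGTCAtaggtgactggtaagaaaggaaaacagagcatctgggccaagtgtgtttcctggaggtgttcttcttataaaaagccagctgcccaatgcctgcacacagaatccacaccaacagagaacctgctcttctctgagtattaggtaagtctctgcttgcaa
Counting the first base of the gene as 0, the match began at -113 in Spp1, at -71 in Prom1, at -195 in C1qc and at -2 in Ctss. The first match began at -240 in Cldn4, at -135 in F3 and at -146 in Sprr1a. Over both strands, GAGGAAGT was in 3.69% of all 27025 promoters and in 3.97% of those of the genes tested. It was in 6.69% of the promoters of genes called higher in Kupffer-like cells (158 of 2361) and in 2.80% for genes called higher in BECs (79 of 2819). Among called genes with a difference of at least 4-fold, the shares were 9.86% (35 of 355) and 2.96% (21 of 709). TGACTCA, a motif chosen after the values had been seen, was in 5.95% of all promoters, in 4.91% of those of the genes tested, in 5.08% for genes called higher in Kupffer-like cells and in 5.89% for genes called higher in BECs. At 4-fold or more the shares were 7.04% and 8.89%. AACCGGTT, the grainyhead motif, was in 0.174% of all promoters and in 0.305% of those of the genes tested. It was in 0.284% for genes called higher in BECs, in 0.212% for genes called higher in Kupffer-like cells, and in 1 of 709 for genes at least 4-fold higher in BECs. No named gene held AACCGGTT in its promoter. A match is a description of these letters and not a binding site.

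The genes that build and hold together a simple epithelium were higher in BECs throughout their list. All 18 tested keratin and adhesion genes were called higher, with a median log2 fold change of 4.17, beside 27.7% of all genes tested. Cdh1, the cadherin of epithelial junctions, stood at 247, 266 and 185 FPKM in BECs against 5.65, 2.70 and 1.70 in Kupffer-like cells, a log2 fold change of 5.83. Krt7 was lower than the other ductal keratins, at 19.6, 27.7 and 20.99 FPKM in BECs against 0.465, 0.247 and 0.316 in Kupffer-like cells. Eppk1, an epiplakin that binds keratin filaments, had a log2 fold change of 4.18. Of 21 tight junction genes, 20 were higher in BECs and only Cldn5 was lower. Cldn7 and Cldn3, claudins of epithelia, had log2 fold changes of 6.21 and 5.75. Cldn5, the claudin of endothelium, stood at 47.9, 43.7 and 92.4 FPKM in BECs against 151, 186 and 153 in Kupffer-like cells (-1.47), a call that was lost with all 9 Sham libraries in the fit. Sinusoidal endothelial markers moved with it, summing to 291.1 to 375.8 FPKM in BECs and 1920 to 2489 in Kupffer-like cells, and their part in the result was not tested.

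Transcription factors of the biliary lineage differed the same way. Among 23 tested, 22 were called higher in BECs, beside 27.7% of all genes tested, and Gata4 was called lower. Elf3, an epithelial ETS factor, stood at 77.7, 116 and 80.1 FPKM in BECs against 0.336, 0.324 and 0.0669 in Kupffer-like cells, a log2 fold change of 6.20 ± 0.19. Ehf (4.70), another epithelial ETS factor, and Sox9 (5.92) were among the largest differences of the list too. Gata4, which is also a factor of sinusoidal endothelium, stood at 11.4, 12.2 and 16.4 FPKM in BECs against 38.9, 48.7 and 40.1 in Kupffer-like cells (-1.61; limma adjusted p = 1.8e-04). The highest BECs library for Gata4 lay below the lowest Kupffer-like library.

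Of 20 tested genes for fluid and bicarbonate secretion, 17 were higher in BECs, beside 27.7% of all genes tested. Another 3 were lower, a share below the 23.9% of all genes tested. A further 8 of the 28 listed genes did not reach the filter. Atp1b1, a sodium pump subunit that powers secretion, stood at 164, 190.5 and 107 FPKM in BECs against 8.18, 4.31 and 3.10 in Kupffer-like cells (4.69). The calcium-activated chloride channel Ano1 stood at 27.5, 30.1 and 23.8 FPKM in BECs against 0.421, 0.558 and 0.285 in Kupffer-like cells (4.30). Slc4a4, a sodium bicarbonate cotransporter, stood at 23.2, 28.5 and 8.29 FPKM in BECs against 0.197, 0.242 and 0.165 in Kupffer-like cells (3.97), with BECs library 3 lowest. The bile acid carrier Slc10a2 of the cholangiocyte surface stood at 7.25, 10.7 and 3.97 FPKM in BECs against 0.131, 0.0123 and 0.0476 in Kupffer-like cells (2.88). Cftr, the chloride channel of the apical membrane, and Sctr, the receptor for the hormone secretin, were at low levels even in BECs. Both passed the filter only through the BECs libraries. Cftr stood at 4.96, 4.32 and 3.50 FPKM in BECs against 0.141, 0.132 and 0.0255 in Kupffer-like cells (2.25; limma adjusted p = 1.7e-05). Sctr stood at 4.16, 3.23 and 5.38 FPKM in BECs against 0.173, 0.0255 and 0 in Kupffer-like cells (2.29; limma adjusted p = 4.0e-05). Aqp1, a water channel of cholangiocytes and of endothelium, went the other way, at 278, 283 and 234 FPKM in BECs against 616, 896 and 768 in Kupffer-like cells (-1.50; limma adjusted p = 5.0e-04), a call also lost with all 9 Sham libraries in the fit. Abcc3 (-1.30), an organic anion pump, and Slc26a6 (-0.82), an anion exchanger, were the other 2 genes lower in BECs.

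Primary cilium genes were higher in BECs for 14 of 19 tested members, beside 27.7% of all genes tested. None was lower by limma (0 also at an unadjusted p under 0.05 and with limma voom). The median log2 fold change was 0.85. Bicc1, an RNA-binding protein of cystic disease, stood at 64.0, 50.4 and 45.1 FPKM in BECs against 1.14, 0.758 and 0.299 in Kupffer-like cells (4.98). Pkhd1, the fibrocystin gene, stood at 24.7, 21.1 and 16.6 FPKM in BECs against 0.451, 0.412 and 0.0656 in Kupffer-like cells (4.05). Kif12, a kinesin linked to cholestasis, had a log2 fold change of 3.83, and Cys1, the ciliary protein cystin, one of 3.44.

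Proteins of mucosal surfaces included some of the most abundant transcripts of BECs. Of 14 tested mucosal genes, 12 were higher in BECs, beside 27.7% of all genes tested. None was lower by limma (0 also at an unadjusted p under 0.05 and with limma voom, but 1 without BECs library 3). The median log2 fold change was 4.06. Clu, a secreted chaperone, stood at 2665, 2604 and 2468 FPKM in BECs against 57.4, 41.7 and 22.4 in Kupffer-like cells (6.05). Muc1, a membrane mucin, stood at 139.9, 178 and 93.2 FPKM in BECs against 0.571, 0.743 and 0.232 in Kupffer-like cells (6.48). Tff2, a trefoil peptide that protects mucosa, stood at 38.5, 75.0 and 108 FPKM in BECs against 0.340, 0.263 and 0 in Kupffer-like cells (5.85), and BECs library 1 was lowest. Pigr, which carries immunoglobulin A into bile, stood at 165, 321 and 132 FPKM in BECs against 7.90, 4.01 and 2.14 in Kupffer-like cells (5.21). Wfdc2 (5.59) belongs to a family of secreted protease inhibitors. Spp1, the secreted matrix protein osteopontin, was counted with the matrix genes and stood at 2664, 2440 and 3153 FPKM in BECs against 116, 54.7 and 83.8 in Kupffer-like cells (5.06).

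Basement membrane genes and epithelial integrins were higher in BECs for 14 of 20 tested members, beside 27.7% of all genes tested, and lower for 2. Itga3, an integrin that binds laminins, stood at 45.9, 47.8 and 48.9 FPKM in BECs against 1.07, 1.44 and 0.814 in Kupffer-like cells (4.54). Itgb4, an integrin of hemidesmosomes, stood at 15.9, 15.9 and 15.7 FPKM in BECs against 0.431, 0.643 and 0.204 in Kupffer-like cells (3.57). Nid1 (-0.46), a linker of basement membrane proteins, and Cd44 (-1.21), a hyaluronan receptor shared with leukocytes, were lower in BECs. The call of Nid1 was lost without BECs library 1 or 3 and without Kupffer-like library 2 or 3.

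Hippo pathway genes and YAP targets were mostly higher in BECs. Among 23 tested, 14 were higher in BECs, beside 27.7% of all genes tested. Another 4 were lower, a share below the 23.9% of all genes tested. Cyr61, a matricellular YAP target, stood at 2085, 1996 and 2039 FPKM in BECs against 74.2, 60.1 and 59.4 in Kupffer-like cells (4.97). Ctgf, a related target, stood at 142, 156 and 162 FPKM in BECs against 7.82, 16.0 and 19.0 in Kupffer-like cells (3.42). The scaffold protein Wwc1 had a log2 fold change of 5.13. Yap1 itself stood at 10.0, 11.9 and 8.52 FPKM in BECs against 3.75, 4.18 and 3.78 in Kupffer-like cells (1.18; limma adjusted p = 3.5e-04). Axl, a receptor tyrosine kinase that is both a YAP target and a receptor for dying cells, stood at 28.3, 31.3 and 29.2 FPKM in BECs against 146, 141 and 178 in Kupffer-like cells (-2.34). Stellate and fibroblast markers summed to 749.9 to 1218 FPKM in BECs and 139.0 to 167.5 in Kupffer-like cells. Their part in these differences was not tested.

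Notch genes divided by member: 10 of 20 tested were higher in BECs, beside 27.7% of all genes tested. Another 7 were lower, beside 23.9% of all genes tested. The ligand Jag1, which directs bile duct fate, stood at 30.5, 29.9 and 23.3 FPKM in BECs against 4.50, 2.33 and 1.38 in Kupffer-like cells (3.03). The target Hes1 stood at 442, 448 and 609 FPKM in BECs against 79.3, 57.2 and 41.3 in Kupffer-like cells (3.09), and the receptor Notch3 at 16.0, 17.2 and 11.8 FPKM in BECs against 0.580, 0.809 and 0.184 in Kupffer-like cells (3.40). Notch3 is also a receptor of mural cells. The ligand Dll4, known from endothelium, stood at 15.0, 17.2 and 18.7 FPKM in BECs against 57.0, 43.3 and 39.5 in Kupffer-like cells (-1.39). Notch4 (-1.01), a receptor of endothelium, Notch1 (-0.56) and the receptor-modifying enzyme Lfng (-1.71) were also lower in BECs, but the call of Notch1 was lost without BECs library 1 and without each Kupffer-like library.

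Of 27 tested members of a chosen list of receptor tyrosine kinases and their ligands, 23 were higher in BECs, beside 27.7% of all genes tested. The list does not cover the whole class. The receptor tyrosine kinases Csf1r (-3.74), Mertk (-3.46) and Axl (-2.34), counted in other lists, were higher in Kupffer-like cells. Fgfr3, a receptor for fibroblast growth factors, stood at 93.4, 81.2 and 71.9 FPKM in BECs against 2.69, 1.77 and 1.04 in Kupffer-like cells (4.91). Ddr1, a collagen receptor of epithelia, stood at 60.7, 56.3 and 71.7 FPKM in BECs against 3.53, 2.02 and 1.29 in Kupffer-like cells (4.33). Epha2 (3.46), an ephrin receptor, and Met (3.06), the receptor for hepatocyte growth factor, were higher as well. The ligand of Met lay on the other side: Hgf stood at 2.21, 2.79 and 1.05 FPKM in BECs against 7.01, 4.92 and 4.33 in Kupffer-like cells (-1.11; limma adjusted p = 0.0093), a call that was lost with all 12 BECs and Kupffer-like libraries in the fit. Igf1 (-0.78), insulin-like growth factor 1, was the other member lower in BECs.

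The resident Kupffer cell identity genes were almost all higher in Kupffer-like cells, 17 of 18 tested, with a median log2 fold change of -4.32, beside 23.9% of all genes tested. Folr2, a folate receptor of resident macrophages, stood at 0.326, 0.526 and 0.744 FPKM in BECs against 51.8, 50.01 and 57.3 in Kupffer-like cells (-5.15). Clec1b, a lectin that binds podoplanin, stood at 0.967, 0.505 and 0.871 FPKM in BECs against 31.2, 34.99 and 36.2 in Kupffer-like cells (-4.31). Slc40a1, the iron exporter ferroportin, stood at 4.38, 3.92 and 2.87 FPKM in BECs against 119.6, 137 and 179 in Kupffer-like cells (-4.94). The exception was Xcr1, a chemokine receptor better known from dendritic cells, at 3.12, 2.25 and 2.55 FPKM in BECs against 1.11, 1.02 and 1.19 in Kupffer-like cells (0.78; limma adjusted p = 0.0019), a low level in all 6 libraries.

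Of 21 macrophage transcription factors, 16 were higher in Kupffer-like cells, beside 23.9% of all genes tested. None was higher in BECs by limma (0 also at an unadjusted p under 0.05 and with limma voom, but 3 without BECs library 3). Nr1h3, the liver X receptor that maintains Kupffer cell identity, stood at 7.41, 6.27 and 8.34 FPKM in BECs against 78.4, 96.6 and 98.6 in Kupffer-like cells (-3.47 ± 0.15). Maf stood at 6.28, 6.71 and 5.62 FPKM in BECs against 58.2, 83.5 and 92.6 in Kupffer-like cells (-3.43), and Spi1 had a log2 fold change of -2.99. Spic, a factor of iron-recycling macrophages, stood at 1.67, 1.81 and 1.76 FPKM in BECs against 13.8, 21.4 and 28.4 in Kupffer-like cells (-2.96). Irf8 (-1.73) and Tfec (-2.86) were higher in Kupffer-like cells as well. Leukocyte surface genes were higher for 22 of 25 members and Fc receptors with their signalling adaptors for 21 of 22. Adgre1, which encodes the F4/80 antigen, stood at 13.0, 10.5 and 18.1 FPKM in BECs against 238, 208 and 283 in Kupffer-like cells (-4.06). Siglec1, the sialoadhesin of tissue macrophages, stood at 2.76, 1.84 and 3.27 FPKM in BECs against 44.9, 61.9 and 115 in Kupffer-like cells (-4.28), with Kupffer-like library 3 highest. Ptprc, the pan-leukocyte gene for CD45, stood at 5.72, 4.82 and 4.08 FPKM in BECs against 32.9, 25.1 and 29.3 in Kupffer-like cells (-2.36). Fcgr2b, the inhibitory Fc receptor that sinusoidal endothelium also carries, stood at 11.8, 11.1 and 13.5 FPKM in BECs against 170.0, 186 and 176 in Kupffer-like cells (-3.76). Tyrobp, an adaptor of activating receptors, stood at 35.6, 34.0 and 56.8 FPKM in BECs against 479, 450.2 and 488 in Kupffer-like cells (-3.50).

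**Figure D3:**
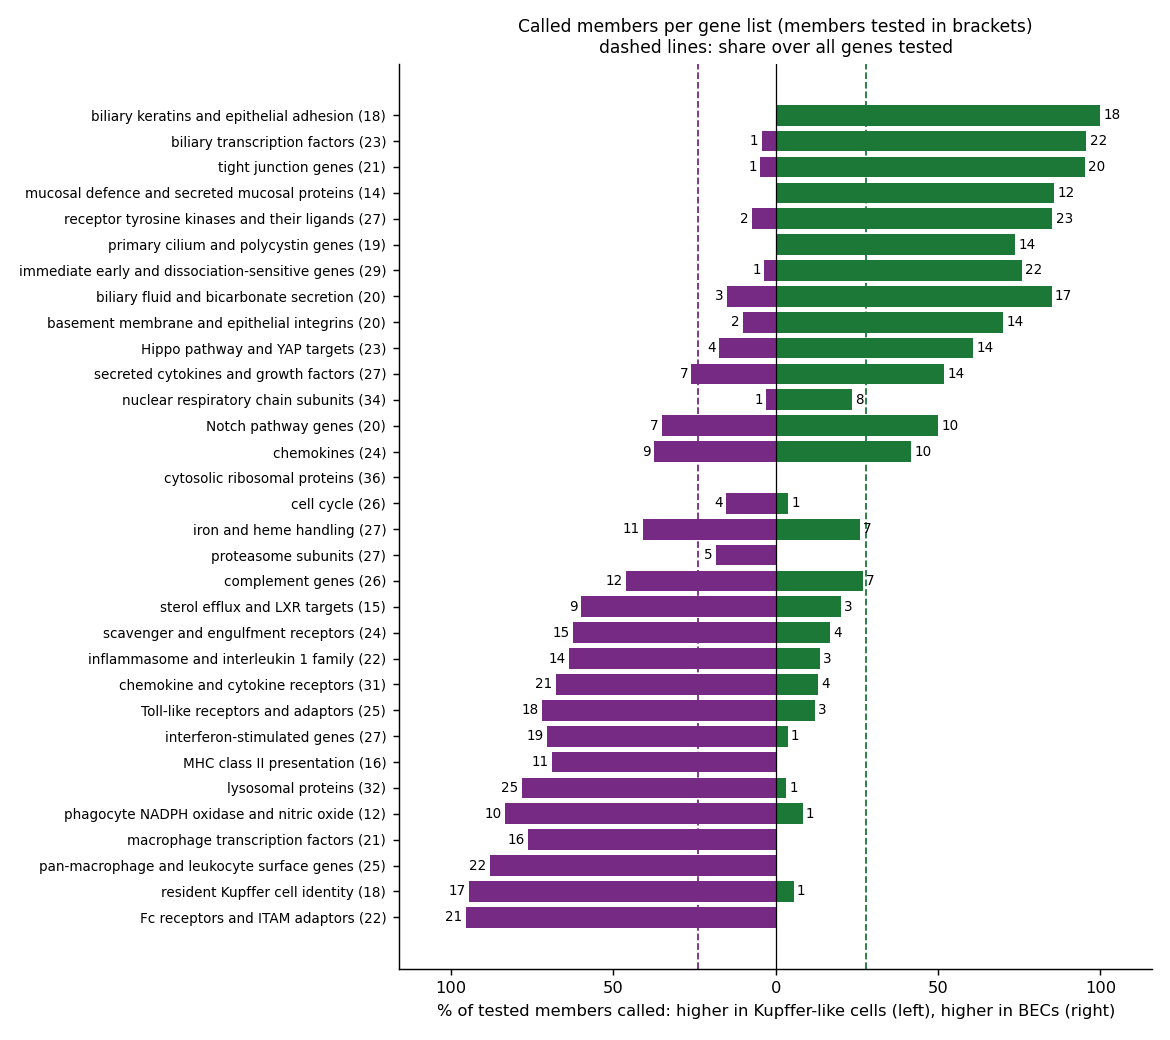
Share of tested members called higher in Kupffer-like cells (purple, left) and in BECs (green, right) for 32 gene lists, with the number called beside each bar and the number tested in brackets. The dashed lines mark the shares over all 13771 genes, 27.7% (right) and 23.9% (left). Epithelial lists lie past the line on the right, macrophage lists past that on the left, and ribosomal proteins at 0 on both sides. The Notch, chemokine and secreted cytokine lists lie past both lines.

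Of 26 tested complement genes, 12 were higher in Kupffer-like cells, beside 23.9% of all genes tested, and 7 were higher in BECs, a share near the 27.7% of all genes tested. The 3 chains of C1q, the recognition unit of the classical pathway, were all higher in Kupffer-like cells, and C1qc had the lowest level of the 3 in every library. C1qa stood at 75.9, 69.1 and 135 FPKM in BECs against 1418, 1394 and 1519 in Kupffer-like cells (-4.00), C1qb at 82.9, 74.6 and 151 FPKM in BECs against 1383, 1389 and 1525 in Kupffer-like cells (-3.86) and C1qc at 33.6, 32.2 and 59.1 FPKM in BECs against 719.5, 738 and 758 in Kupffer-like cells (-4.17). Cfp, the properdin that stabilises the alternative pathway, stood at 11.6, 14.8 and 28.4 FPKM in BECs against 516, 671 and 789 in Kupffer-like cells (-5.17), and C6, part of the lytic complex, at 10.6, 4.07 and 2.32 FPKM in BECs against 109, 106 and 133 in Kupffer-like cells (-4.33). BECs had more transcript of the central component C3, at 526, 552 and 798 FPKM in BECs against 87.9, 76.1 and 75.9 in Kupffer-like cells (2.93). C7, the next part of the lytic complex, stood at 78.7, 97.5 and 27.1 FPKM in BECs against 1.56, 0.479 and 0.185 in Kupffer-like cells (5.20), with BECs library 3 lowest. C1s1 (2.62), a protease of the classical pathway, and Cfi (2.25), which cleaves activated C3, were also higher in BECs. Hepatocytes make several of these proteins, and hepatocyte markers summed to 1654 to 3889 FPKM in BECs and 497.6 to 1216 in Kupffer-like cells. The part of hepatocyte and stellate transcripts in the complement results was not tested.

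Most genes of the scavenger and engulfment list, which holds receptors for dying cells and their bridging ligands, were higher in Kupffer-like cells. Of 24 tested, 15 were higher in Kupffer-like cells, beside 23.9% of all genes tested. Another 4 were higher in BECs, a share below the 27.7% of all genes tested. Mertk, a receptor tyrosine kinase for dying cells, stood at 5.12, 7.94 and 4.81 FPKM in BECs against 68.9, 67.0 and 87.5 in Kupffer-like cells (-3.46), and Axl was higher in Kupffer-like cells as given above. Gas6, the ligand of both, stood at 723, 701 and 805 FPKM in BECs against 52.5, 71.0 and 72.2 in Kupffer-like cells (3.50 ± 0.17; limma adjusted p = 7.5e-06). Mfge8, which bridges phosphatidylserine to integrins, stood at 119.7, 110.4 and 142 FPKM in BECs against 15.1, 17.8 and 15.5 in Kupffer-like cells (2.86). Tyro3, another receptor for Gas6, was low in both and higher in BECs, at 1.76, 1.85 and 1.81 FPKM in BECs against 0.480, 0.720 and 0.670 in Kupffer-like cells (0.79). Pros1, another ligand of these receptors, was higher in Kupffer-like cells (-0.89; limma adjusted p = 0.0024), and the integrin chain Itgav was higher in BECs (0.72; limma adjusted p = 0.0094). Mrc1, the mannose receptor, stood at 16.5, 15.5 and 13.4 FPKM in BECs against 205, 202 and 239.5 in Kupffer-like cells (-3.75), and Msr1, a scavenger receptor for modified lipoproteins, at 4.73, 4.41 and 4.91 FPKM in BECs against 75.9, 61.5 and 58.2 in Kupffer-like cells (-3.53). Stab2, a hyaluronan scavenger receptor of sinusoidal endothelium, stood at 4.42, 6.95 and 5.15 FPKM in BECs against 115, 152 and 186 in Kupffer-like cells (-4.54).

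Of 27 tested iron and heme genes, 11 were higher in Kupffer-like cells and 7 in BECs, the latter a share near that of all genes tested. Besides Slc40a1, Hmox1, which breaks down heme, stood at 49.5, 72.8 and 95.7 FPKM in BECs against 283, 294 and 284 in Kupffer-like cells (-2.02; limma adjusted p = 3.4e-04). Slc11a1, the iron transporter of phagosomes, stood at 5.83, 5.94 and 8.72 FPKM in BECs against 89.2, 95.1 and 117 in Kupffer-like cells (-3.70), and Blvrb, biliverdin reductase B, at 11.1, 6.97 and 13.9 FPKM in BECs against 49.1, 43.4 and 48.0 in Kupffer-like cells (-2.08). Cp, the plasma ferroxidase ceruloplasmin, was higher in BECs, at 161, 138 and 127 FPKM in BECs against 4.95, 3.56 and 2.50 in Kupffer-like cells (4.96). Hpx, the plasma carrier of heme, and Hp, that of hemoglobin, were higher in BECs at 1.82 and 1.33, and both belong to the secreted products of hepatocytes. The other 4 higher in BECs were Lcn2 (2.95), which binds bacterial iron carriers, the transferrin receptors Tfr2 (1.25) and Tfrc (0.55), and the metalloreductase Steap4 (0.95). The call of Tfrc was lost without each library except BECs library 3.

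Most tested genes of degradation and of the phagocyte oxidase were higher in Kupffer-like cells, beside 23.9% of all genes tested. This held for 25 of 32 lysosomal genes, with a median log2 fold change of -1.21, and for 10 of 12 tested genes of the oxidase and nitric oxide list. Those 10 included the arginases Arg1 (-3.47) and Arg2 (-1.34). The nitric oxide synthase Nos2 and the oxidases Nox1 and Nox4 did not reach the filter. Nos2 stood at 1.37, 3.955 and 0.462 FPKM in BECs against 0.09, 0.476 and 0.527 in Kupffer-like cells. Ctss stood at 71.9, 60.4 and 111 FPKM in BECs against 883, 812 and 879 in Kupffer-like cells (-3.44), and Lgmn, the protease legumain, at 54.2, 51.1 and 72.3 FPKM in BECs against 537, 545 and 622 in Kupffer-like cells (-3.25). Ctse, an aspartic protease of epithelia, was the lysosomal gene called higher in BECs (2 were without Kupffer-like library 1 or 3), at 13.7, 24.6 and 10.5 FPKM in BECs against 1.94, 1.58 and 1.87 in Kupffer-like cells (2.54). Cybb, the catalytic subunit of the phagocyte oxidase, stood at 12.1, 10.5 and 9.90 FPKM in BECs against 94.5, 87.0 and 117 in Kupffer-like cells (-3.08). Duox2, the oxidase of mucosal epithelia, was the 1 oxidase higher in BECs, at 17.1, 59.6 and 18.2 FPKM in BECs against 0.0387, 0.0561 and 0.0309 in Kupffer-like cells (4.73), with BECs library 2 highest.

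Toll-like receptors and adaptors were higher in Kupffer-like cells for 18 of 25 members, beside 23.9% of all genes tested. Another 3 were higher in BECs, a share below the 27.7% of all genes tested. Tlr7, an endosomal receptor for RNA, stood at 2.12, 1.44 and 1.54 FPKM in BECs against 19.9, 15.4 and 24.1 in Kupffer-like cells (-2.93), and Tlr13, an endosomal receptor for bacterial ribosomal RNA, at 1.44, 1.54 and 1.62 FPKM in BECs against 13.3, 12.6 and 18.0 in Kupffer-like cells (-2.61). Other endosomal receptors of nucleic acids differed less, with Tlr9 at -0.70 and Tlr3 not called (-0.02; limma adjusted p = 0.92). Unc93b1, which brings these receptors to endosomes, stood at 39.3, 33.8 and 47.5 FPKM in BECs against 205, 207 and 234 in Kupffer-like cells (-2.40). Tlr5, the receptor for flagellin, was higher in BECs at a low level, 2.10, 1.43 and 1.43 FPKM in BECs against 0.197, 0.171 and 0.134 in Kupffer-like cells (1.18). It passed the filter only through the BECs libraries. Inflammasome and interleukin 1 genes were higher in Kupffer-like cells for 14 of 22 members. Casp1, the protease that activates interleukin 1, stood at 3.63, 4.44 and 5.31 FPKM in BECs against 34.5, 38.3 and 35.3 in Kupffer-like cells (-2.77). Il1a stood at 16.5, 21.8 and 20.6 FPKM in BECs against 126, 191 and 189.5 in Kupffer-like cells (-3.03). Il33 (1.10; limma adjusted p = 0.019), an alarmin of barrier cells, and the receptor Il1r1 (0.83) were higher in BECs, as was the decoy receptor Il1r2 (1.42; limma adjusted p = 0.039). Il33 lost its call without BECs library 1 or 3 or Kupffer-like library 2, and Il1r2 lost it without each BECs library and without Kupffer-like library 2 or 3.

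The MHC class II list was not uniform. Of 16 members, 11 were higher in Kupffer-like cells, beside 23.9% of all genes tested, and 5 were not called. These 5 included the class II chains of highest level, H2-Aa, H2-Ab1 and H2-Eb1. H2-Eb1 stood at 595, 538 and 699.8 FPKM in BECs against 535, 699 and 545 in Kupffer-like cells (0.05; limma adjusted p = 0.86), and its groups overlapped. Cd74, the invariant chain, stood at 1389, 1198 and 1815 FPKM in BECs against 1438, 2419 and 2153.2 in Kupffer-like cells (-0.44; limma adjusted p = 0.21). Cd86, a costimulatory ligand, was higher in Kupffer-like cells at 5.86, 6.53 and 5.84 FPKM in BECs against 22.3, 24.9 and 29.3 in Kupffer-like cells (-1.90). Dendritic cell markers summed to 137.2 to 238.9 FPKM in BECs and 402.0 to 470.5 in Kupffer-like cells, and B and plasma cell markers to 159.7 to 2146 and 1122 to 1471. Their part in the class II levels was not tested.

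Chemokines were shared out nearly evenly, and each side had its own members. Of 24 tested, 10 were higher in BECs, beside 27.7% of all genes tested. Another 9 were higher in Kupffer-like cells, beside 23.9% of all genes tested. Cx3cl1, which attracts monocytes, stood at 18.9, 24.9 and 21.9 FPKM in BECs against 0.227, 0.248 and 0.302 in Kupffer-like cells (4.18). Cxcl5 (3.86) and Cxcl1 (2.44), which attract neutrophils, were higher in BECs too. Cxcl12 stood at 45.3, 43.1 and 54.9 FPKM in BECs against 6.50, 7.86 and 5.61 in Kupffer-like cells (2.67). Ccl20, a chemokine made by epithelia, stood at 1.13, 3.09 and 1.803 FPKM in BECs and was listed at 0 in every Kupffer-like library, so it passed the filter only through BECs. Kupffer-like cells had Ccl24, which draws eosinophils, at 50.6, 51.2 and 65.2 FPKM against 0.817, 0.524 and 1.37 in BECs (-4.91). They also had Ccl6 (-4.21) and, as given above, Cxcl13.

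Receptors for these signals were mostly higher in Kupffer-like cells, 21 of 31 chemokine and cytokine receptors, beside 23.9% of all genes tested. Another 4 were higher in BECs, a share below the 27.7% of all genes tested. Il10ra, the interleukin 10 receptor, stood at 10.3, 8.48 and 9.52 FPKM in BECs against 54.4, 66.3 and 69.9 in Kupffer-like cells (-2.62). The exceptions included Tnfrsf12a, the receptor for the cytokine TWEAK, at 194, 228 and 209.6 FPKM in BECs against 3.88, 3.21 and 1.89 in Kupffer-like cells (5.76 ± 0.20; limma adjusted p = 4.0e-06). Il17re (2.88) and Il17rc (1.57), receptors for epithelial responses to interleukin 17, were also higher in BECs, as was Ackr3 (1.77), a decoy receptor for Cxcl12. T and NK cell markers summed to 25.39 to 31.05 FPKM in BECs and 176.4 to 219.2 in Kupffer-like cells. Sinusoidal endothelial markers were also higher in Kupffer-like cells. The part of lymphocyte and endothelial transcripts in the receptor counts was not tested.

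Of 27 secreted cytokines and growth factors, 14 were higher in BECs, beside 27.7% of all genes tested. Another 7 were higher in Kupffer-like cells, a share near the 23.9% of all genes tested. Vegfa, the endothelial growth factor, stood at 107, 119 and 74.3 FPKM in BECs against 9.07, 5.74 and 5.34 in Kupffer-like cells (3.72). Wnt4 stood at 21.7, 20.7 and 21.4 FPKM in BECs against 0.923, 1.36 and 0.554 in Kupffer-like cells (3.54), and Tgfb2 at 12.7, 10.3 and 11.4 FPKM in BECs against 0.5997, 0.584 and 0.461 in Kupffer-like cells (3.01). The related Tgfb1 was lower in BECs, at 11.5, 13.8 and 22.1 FPKM in BECs against 37.6, 76.5 and 80.1 in Kupffer-like cells (-1.94; limma adjusted p = 0.0031). Bmp2, which endothelium uses to control hepatic iron, stood at 14.6, 20.6 and 16.3 FPKM in BECs against 178, 208 and 219 in Kupffer-like cells (-3.49). Il10, an inhibitory cytokine, stood at 3.11, 5.00 and 2.95 FPKM in BECs against 20.7, 26.8 and 37.2 in Kupffer-like cells (-2.63). Il34, a ligand of Csf1r, was higher in BECs (1.62), whereas Csf1, the other ligand, stood at 11.5, 20.5 and 19.4 FPKM in BECs against 13.7, 20.8 and 19.4 in Kupffer-like cells (-0.08; limma adjusted p = 0.81). Csf1 was chosen after its values had been seen.

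Lipid and interferon programmes were higher in Kupffer-like cells for most members, beside 23.9% of all genes tested. Sterol efflux genes and targets of the liver X receptor were higher for 9 of 15 members and lower for 3. Abcg1, a cholesterol exporter, stood at 4.09, 3.95 and 6.29 FPKM in BECs against 37.7, 37.9 and 50.1 in Kupffer-like cells (-2.90), and Pltp, a phospholipid transfer protein, at 24.5, 23.8 and 37.9 FPKM in BECs against 169.6, 182 and 197 in Kupffer-like cells (-2.66). Srebf1 (1.12), the regulator of fatty acid synthesis, Ch25h (1.22), which makes 25-hydroxycholesterol, and Lpcat3 (0.76), a phospholipid remodelling enzyme, were higher in BECs. Of 27 interferon-stimulated genes, 19 were higher in Kupffer-like cells, with Irf7 at 10.2, 13.1 and 22.5 FPKM in BECs against 101, 122 and 169.9 in Kupffer-like cells (-3.06). Irf1, the 1 member called higher in BECs (0.89; limma adjusted p = 0.028), lost its call without BECs library 2 or 3 or without Kupffer-like library 1 or 3.

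Housekeeping genes differed little. None of 36 ribosomal protein genes was called by limma, 0 had an unadjusted p under 0.05 and 0 were called by limma voom on recovered reads, and their log2 fold changes ran from -0.39 to 0.30, but 7 were called higher in Kupffer-like cells without BECs library 3. The 95% confidence interval of the log2 fold change lay within 0.5 of 0 for 2290 genes (16.6%). Tpt1, Rhob and Rpl8 had the highest levels among the 8 named from these, at 683 ± 95.6 against 678 ± 89.6, 605 ± 38.8 against 572 ± 15.4 and 421 ± 103 against 414 ± 20.2 FPKM in BECs against Kupffer-like cells (SD, n = 3). Of 34 nuclear respiratory chain genes, 8 were called higher in BECs, a share near the 27.7% of all genes tested, and Cox5a was called lower (-0.90). The count of 8 fell to 2 without Kupffer-like library 2 or 3 and to 3 without BECs library 2. Of 27 proteasome genes, 5 were higher in Kupffer-like cells, beside 23.9% of all genes tested, and 11 without BECs library 3. These included the 3 subunits of the immunoproteasome, Psmb8 (-1.04), Psmb9 (-1.03) and Psmb10 (-1.03). Cell cycle genes were called for 5 of 26 members, 4 of them higher in Kupffer-like cells (7 with limma voom on recovered reads), a count that rose to 18 without BECs library 3.

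Immediate early genes, which tissue dissociation is known to raise, were higher in BECs for 22 of 29 members, beside 27.7% of all genes tested. Their median log2 fold change was 1.21. Fosl1 had the largest difference (5.67). Atf3, a stress factor, stood at 1903, 1691 and 2141 FPKM in BECs against 178, 198 and 228 in Kupffer-like cells (3.24). Egr1 stood at 1364, 1251 and 1128 FPKM in BECs against 357, 418 and 528 in Kupffer-like cells (1.53) and was well above 300 FPKM in all 6 libraries. Klf2, a factor that flow maintains in endothelium, was the member higher in Kupffer-like cells, at 256, 251 and 353 FPKM in BECs against 421, 815 and 828 in Kupffer-like cells (-1.21).

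Markers of other cells were present in both preparations and differed between them. All 13 sinusoidal endothelial markers were higher in Kupffer-like cells, beside 23.9% of all genes tested, with a median log2 fold change of -3.32. Clec4g, a lectin of sinusoidal endothelium, stood at 14.8, 15.4 and 27.1 FPKM in BECs against 326, 361 and 309 in Kupffer-like cells (-4.10), and Dnase1l3 at 8.31, 11.3 and 12.8 FPKM in BECs against 174, 280.2 and 281 in Kupffer-like cells (-4.36). All 13 T and NK cell markers, 8 of 9 neutrophil markers, all 7 monocyte markers and 7 of 10 B and plasma cell markers were also higher there, and so were all 6 tested erythroid and platelet markers. Dendritic cell markers were divided, with 6 of 9 higher in Kupffer-like cells and 3 in BECs, the latter a share near that of all genes tested. Of these 3, 1 was left without BECs library 1 or 2 or without Kupffer-like library 2 or 3. Of 5 tested mesothelial markers, Gpm6a (2.79) and Msln (1.64) were higher in BECs, and only 1 of the list was without Kupffer-like library 3. Gzma, a granzyme of killer lymphocytes, stood at 1.15, 1.57 and 1.77 FPKM in BECs against 37.3, 30.1 and 34.0 in Kupffer-like cells (-3.80). Of the variable genes of the T cell receptor, 12 of 13 were called on that side, as were 57 of 117 of those of the immunoglobulins. BECs had more transcript of 10 of 13 stellate and fibroblast markers and 8 of 16 hepatocyte markers, beside 27.7% of all genes tested. Acta2, the smooth muscle actin of contractile cells, stood at 116, 146 and 183 FPKM in BECs against 1.34, 0.605 and 0.666 in Kupffer-like cells (6.32), and Col1a1, a chain of collagen I, at 101, 168 and 257 FPKM in BECs against 8.60, 5.71 and 4.11 in Kupffer-like cells (4.57). Alb, the albumin gene of hepatocytes, stood at 1742, 948 and 2744 FPKM in BECs against 631, 437 and 342 in Kupffer-like cells (1.86; limma adjusted p = 0.0078). No list of other cells except the erythroid and platelet one had a marker at 0 in every library of a group. In bulk RNA, fewer cells of a type and less RNA per cell cannot be told apart.

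**Figure D4:**
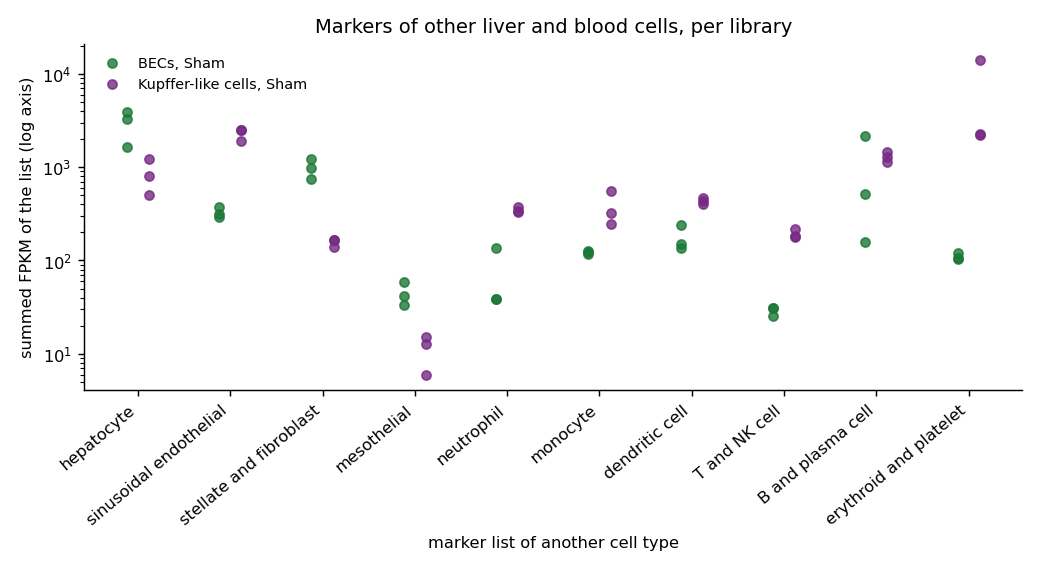
Summed FPKM (log axis) of 10 marker lists of other liver and blood cells in each Sham library, 1 point per library. Endothelial, neutrophil, monocyte, dendritic, T and NK and erythroid sums are higher in all 3 Kupffer-like libraries, hepatocyte, stellate and mesothelial sums are higher in all 3 BECs libraries, and B and plasma cell sums overlap, where BECs range from 159.7 to 2146.

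The same contrast was made in the 6 BECs and Kupffer-like libraries of ligated mice, which the Sham fit does not use. There 4298 of 13511 tested genes were called (31.8%), 2404 higher in BECs (17.8%) and 1894 higher in Kupffer-like cells (14.0%). Of the Sham genes higher in BECs, 3508 were tested after ligation, and 2006 of them (57.2%) were called higher in BECs again, which is 83.4% of the BDL calls in that direction. For Kupffer-like cells the count was 1342 of 3043 (44.1%), or 70.9% of the BDL calls. Cldn4 (8.45 after ligation), Epcam (6.61), Vsig4 (-7.00) and Clec4f (-7.44) had log2 fold changes near their Sham values. The call was opposite for 45 genes, 38 of them higher in BECs in Sham. Alb was among these, with 1.86 in Sham and -2.68 after ligation, where its means were 251 and 1449 FPKM in BECs and Kupffer-like cells.

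The difference between the BDL and the Sham contrast was itself tested with a limma interaction. It was called for 520 of 14874 genes (3.50%), 200 more towards BECs after ligation (1.34%) and 320 more towards Kupffer-like cells (2.15%). That count fell to 40 without BECs Sham library 1, to 44 without Kupffer-like Sham library 2 and to 38 without Kupffer-like Sham library 3, and to 284 to 344 without any other Sham library. Krt8 moved from 7.88 in Sham to 4.46 after ligation (interaction -3.43; limma adjusted p = 0.026), where its means were 1730 and 80.8 FPKM in BECs and Kupffer-like cells. Pigr moved from 5.21 to 0.98 (interaction -4.23; limma adjusted p = 0.028). Cftr moved the other way, from 2.25 to 3.50 (interaction 1.25; limma adjusted p = 0.044). Hepatocyte markers also moved between the conditions. In Sham, 8 of 16 were called higher in BECs, beside 27.7% of all genes tested. After ligation, 9 of 16 were called higher in Kupffer-like cells, beside 14.0% of all genes tested there. Their part in the interaction calls was not tested.

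**Figure D5:**
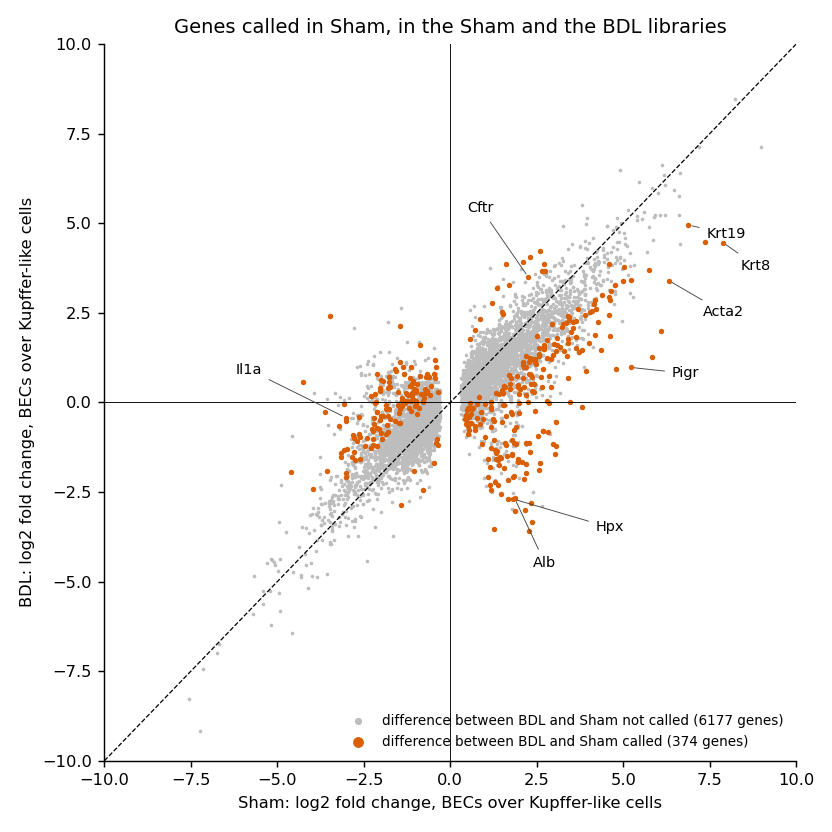
Log2 fold change of BECs over Kupffer-like cells in the Sham libraries (horizontal) and in the BDL libraries (vertical) for the 6551 genes called in Sham and tested in BDL, with the line of equal change dashed. Orange points are the 374 genes whose interaction was called, and among the labelled ones Krt8, Krt19, Pigr, Acta2 and Il1a lie nearer 0 after ligation, Alb and Hpx lie below 0, and Cftr lies above the line.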

How the data were processed

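Polyadenylated RNA of primary mouse liver cells was extracted with TRIzol and made into libraries with a VAHTS kit, per the labels' protocols. The deposited table holds FPKM values made by the authors. The submitters' processing notes list CASAVA 1.8, fastp, HISAT2 2.0.5, featureCounts 1.5.0-p3 and DESeq2 1.20.0 and the build GRCm38 (mm10). The sources used here give no annotation release or strandedness. All 18 columns were matched to libraries by their labels. Reads per gene were recovered from FPKM steps and exon lengths of the GENCODE M21 annotation, for 53710 genes. In the 6 Sham libraries, 97.89 to 98.36% of values below 200 reads came out whole within 0.02. Reads serve as depth and in added alternatives.

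Genes with at least 1 FPKM in at least 3 of 6 libraries were fitted with limma 3.58.1 (R 4.3.3) on log2(FPKM + 1), with a trended and robust variance, 2-sided tests and Benjamini-Hochberg adjustment over all genes tested. A gene was called at an adjusted p under 0.05. The scripts were tested on simulated data. The members and the 42 gene lists were chosen with earlier results of these data known. Named genes are the 10 largest called differences in each direction with a mean of at least 5 FPKM and groups without overlap, a list of markers, up to 6 called members per list and direction, and the 8 most abundant genes whose 95% interval lay within 0.5 of 0. The genes Agtpbp1, Cep112, Alb, Atp1b1, C1qb, C6, Cd74, Csf1, Egr1, H2-Aa, H2-Ab1, Il34, Irf8, Lcn2, Met, Notch1, Pigr, Pros1, Siglec1, Slc10a2, Slc4a4, Tff2, Tfrc, Tlr3, Tlr9, Tyrobp and Yap1 were named after their values were seen. Alternatives were other pseudocounts, filters, scalings and sample sets, a test against 2-fold and leaving out each library, which kept the genes tested. Scaling to recovered reads, limma voom on those reads and sex as a covariate were added after seeing the data. Results for some genes are not reported here.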

Additional observations from a re-analysis of the deposited data

Results flagged for a closer look

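For 17 of the 187 genes named above, the difference between BECs and Kupffer-like cells was itself different between ligated and Sham liver (limma interaction, 3 libraries in each of 4 groups, adjusted over 14874 genes). Over all 14874 genes the share called was 3.50%. Most named genes were chosen for a called Sham difference, and the interaction uses the same Sham libraries, so the choice favours moves towards 0. The values below are the BDL minus Sham change of that log2 difference, and a negative value means that the gene stood less far towards BECs after ligation. Among keratins and their partners the change was -3.43 for Krt8 (adjusted p = 0.026), -2.87 for Krt18 (0.035), -1.93 for Krt19 (0.042) and -1.33 for Eppk1 (0.047). From Sham to BDL, Kupffer-like means went from 11.7 to 80.8 FPKM for Krt8, 9.73 to 56.4 for Krt18 and 3.26 to 11.2 for Krt19. BECs means went from 2554.5 to 1730, 1524.5 to 1238 and 478 to 378. For Eppk1 the means went from 0.0353 to 0.151 in Kupffer-like cells and from 18.1 to 7.49 in BECs. Among ciliary and mucosal genes it was -1.61 for Bicc1 (0.038), -1.05 for Cys1 (0.028) and -4.23 for Pigr (0.028). Cftr changed the other way, by 1.25 (0.044), with group means of 10.9 and 0.0171 FPKM in BECs and Kupffer-like cells after ligation. Among receptors and growth factors it was -2.05 for Tnfrsf12a (0.025) and -1.47 for Wnt4 (0.038). Il1a changed by 2.60 (0.039), from a log2 difference of -3.03 in Sham to -0.42 after ligation. Among hepatocyte products it was -4.54 for Alb (0.036), -4.51 for Hpx (0.044) and -2.90 for Hp (0.046). C1s1 changed by -1.91 (0.033), Gpm6a, a mesothelial marker, by -2.74 (0.017) and Acta2, the marker of contractile cells, by -2.92 (0.036). All 17 adjusted p-values lay between 0.017 and 0.047, and leaving out 1 library can lower the count of such calls from 520 to 38, as given above.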

How the results depend on the processing

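The count of genes called between BECs and Kupffer-like cells in Sham liver stayed within 1.5 times of 7101 in all settings but a pair. It was 4506 with a filter of at least 5 FPKM, which left 8106 genes to test (2306 higher in BECs), and 2195 when tested against a 2-fold change (1361 and 834 higher in BECs and in Kupffer-like cells). Leaving out 1 library gave 5961 to 7613 calls (3220 to 4077 higher in BECs and 2741 to 3536 higher in Kupffer-like cells). Calls higher in BECs were 53.6% of all calls, 44.9% after quantile normalization, with a shift of -0.12 in the median log2 fold change, and 47.0% when scaled to recovered reads. After ligation 4298 calls became 2848 with at least 5 FPKM (1365 of 2404 higher in BECs). Without 1 library they ranged from 2692 to 5616, with 1730 to 3004 higher in BECs and 962 to 2612 higher in Kupffer-like cells. The 1894 calls higher in Kupffer-like cells after ligation fell to 1082, 962 and 1088 without BECs BDL library 1, 2 and 3 and to 1212 without Kupffer-like BDL library 2, and all calls fell to 2817 and 2692 without BECs BDL library 1 and 2. The 520 interaction calls became 318 with a pseudocount of 0.1 (128 and 190 in the 2 directions, from 200 and 320). They ranged from 38 to 344 without 1 Sham library, with 15 to 139 and 23 to 205 in the 2 directions. The cause of these changes was not tested, beyond the genes and libraries that each setting leaves out. No named gene reversed. Leaving out 1 library ended calls of Il1r2, Il33, Irf1, Msln, Nid1, Notch1 and Tfrc. Other settings ended the call of 42 named genes at least once. A fit with all 9 Sham libraries ended those of Aqp1, Cldn5, Klf2, Irf1, Nid1 and Notch1. A fit with all 12 BECs and Kupffer-like libraries ended those of Ch25h, Hgf, Hpx, Itgav, Notch4, Tfr2, Tlr9, Xcr1, Irf1, Msln and Nid1. Having no filter ended those of Cd44, Igf1, Il1r2, Il33, Irf1, Msln, Nid1, Notch1 and Tfrc, and the test against 2-fold ended the most. The gene lists whose counts moved by more than 1.5 times without 1 library are given above with those counts. Depth limits genes near 1 FPKM, and 5691 protein-coding genes were not called. No paired analysis was possible because the BECs and Kupffer-like Sham libraries share no numbers in their labels.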
